A study of Mus musculus with 8 samples.

Results

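Brain endothelium and the blood-brain barrier were followed through 34 genes of endothelial cells, chosen by symbol and matched through their Ensembl identifiers to 34 of the 56748 rows of the count table. The libraries were made from polyadenylated RNA of pulverised frozen forebrain from mice aged 18 months. Of these, 4 libraries came from TgCRND8 transgenics (Tg), which overexpress the amyloid precursor protein (APP), and 4 from non-transgenic littermates (NTg). The line is known for a mutant human APP transgene under a hamster prion promoter and for amyloid plaques, and the transgene is not directed to endothelium. Sex and litter are not used here. Nothing in the labels states that the libraries come from separate animals, so p-values measure the spread between libraries, which may be technical in part.

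Brain capillaries are lined by endothelial cells sealed to one another by tight junctions, and nearly all exchange between blood and brain passes through transporters in their membranes. Efflux pumps return lipophilic compounds to the blood, carriers bring in nutrients, and a lipid transporter, Mfsd2a, holds down vesicular transport across the cell. The cells depend on growth factors of the VEGF and angiopoietin families and on Wnt ligands from neighbouring cells, and transcription factors of the ETS, SOX and forkhead families maintain their identity.

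Totals ran from 57129090 to 65242741 counts per library, and the 34 genes took 0.0634% to 0.0890% of them. All 34 were abundant enough to be tested among 21588 genes. App, the mouse gene to which transgene reads can align in part, stood at 1390 to 1623 CPM across NTg and 2532 to 2980 CPM across Tg, where CPM is a gene's count scaled to the library's TMM-adjusted total (log2 fold change 0.94 with SE 0.07, and adjusted p = 0.00146 by edgeR). The defining endothelial markers Pecam1, Cdh5, Cldn5, Flt1, Kdr and Tek were present in each of the 8 libraries, with a lowest value of 6.98 CPM, for Kdr in Tg replicate 4.

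Endothelial and barrier genes stood slightly lower in Tg, and none passed the test across all genes. The fitted fold change was below 0 for 32 of 34, against 50.8% of all genes tested, with a median log2 fold change of -0.24 against -0.0024 for all genes tested. The quasi-likelihood test of edgeR, with Benjamini-Hochberg adjustment over the 21588 genes and a threshold of 0.05, called 0 of 34, where it called 0.0139% of all genes in either direction and 0.00463% as lower. At an unadjusted p under 0.05 edgeR placed 10 of 34 lower and 0 higher, against 2.68% of all genes lower and 7.36% in either direction. These were Abcb1a, Mfsd2a, Cdh5, Pecam1, Icam2, Flt1, Eng, Ptprb, Itm2a and Egfl7. DESeq2 called 1 of 34, Abcb1a, against 1.47% of the genes to which it gave an adjusted p. In simulated counts of 21588 genes DESeq2 made 43 false calls at this threshold, where edgeR made 4. DESeq2 calls in the text are therefore less certain than the threshold states. The simulated counts used dispersions estimated by edgeR. In them edgeR recovered 10% of genes changed 1.25-fold and 42% of those changed 1.5-fold, and DESeq2 26% and 52%. Small changes were thus mostly missed by edgeR, and 0 of 34 called does not show that the genes were unchanged. The 4 Tg libraries all lay below the 4 NTg libraries for 3 of 34, Abcb1a, Mfsd2a and Cldn5, against 1.58% of all genes. The genes share the 8 libraries, so 32 directions are not 32 independent observations. In whole tissue, fewer endothelial cells and less RNA per cell cannot be told apart.

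**Figure D1:**
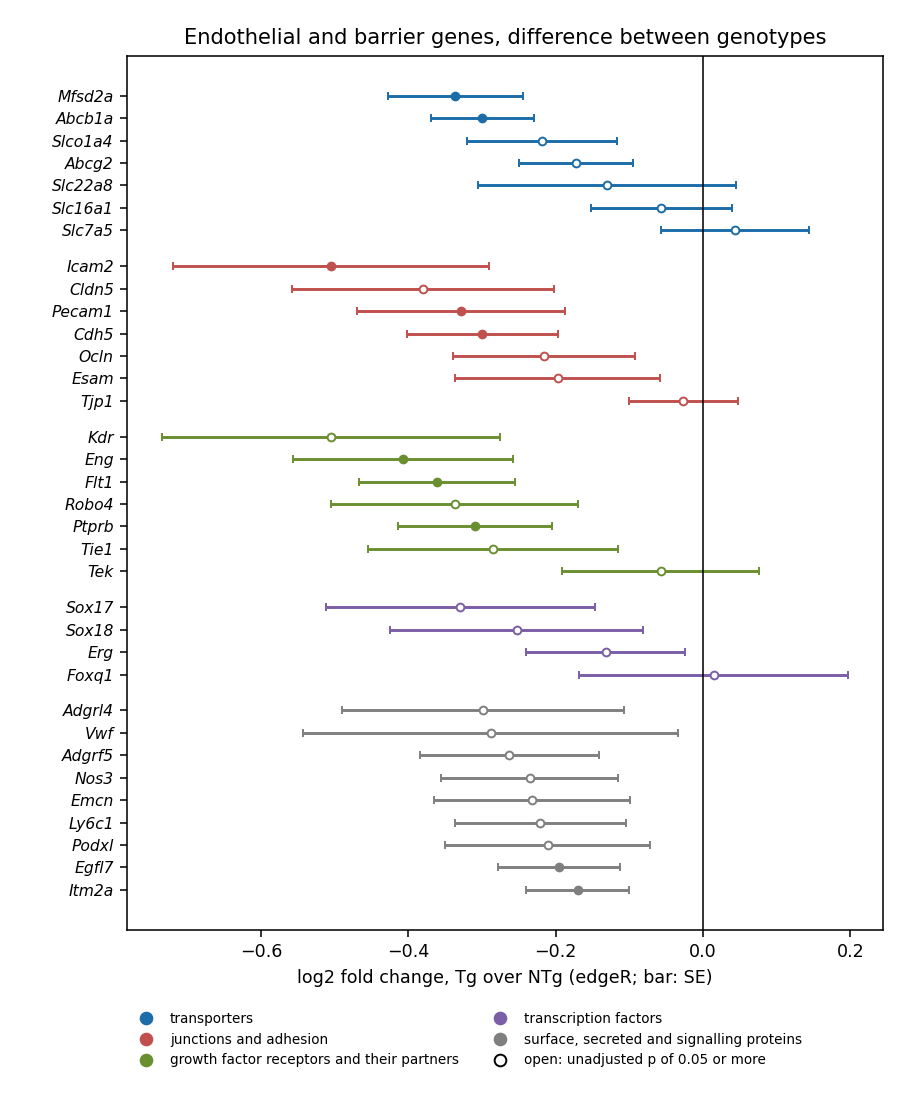
Log2 fold change of Tg over NTg for the 34 genes (horizontal axis, edgeR; bars are the SE), grouped by role, with filled points at an unadjusted p under 0.05. All but Slc7a5 and Foxq1 lie left of 0, and the 10 filled points are spread over 4 of the 5 roles.

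The size of the shift differed from library to library. Averaged over the 34 genes, the NTg libraries lay at 0.13, -0.01, -0.18 and 0.05 on the log2 scale relative to their own mean (replicates 1 to 4), and the Tg libraries at -0.07, -0.18, -0.25 and -0.47. The groups overlapped, since NTg replicate 3 lay below Tg replicate 1. Tg replicate 4 was the lowest of the 8 libraries for 24 of the 34 genes, and NTg replicate 1 was the highest for 14 and NTg replicate 4 for 12. Without Tg replicate 4, 29 of 34 stayed below 0, the median was -0.19 and 6 genes were lower at an unadjusted p under 0.05, against 2.31% of all genes lower. That number was also 6 without Tg replicate 3, where 3.2% of all genes were lower at that p. It was 16 without NTg replicate 3, against 2.32% of all genes, and 18 without Tg replicate 1, against 3.93%.

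**Figure D2:**
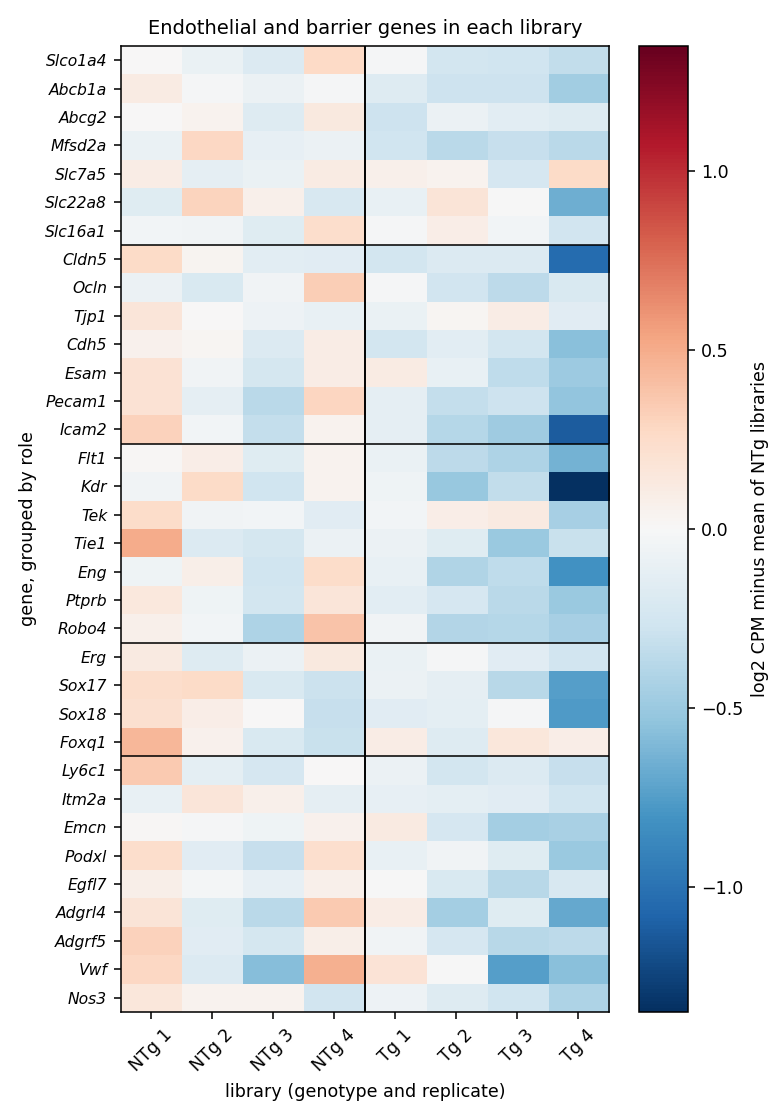
Level of each of the 34 genes (rows, grouped by role) in each library (columns), as log2 CPM minus the mean of the 4 NTg libraries, red above and blue below it. The column of Tg replicate 4 is the darkest blue, with Kdr, Icam2 and Cldn5 lowest, while the column of Tg replicate 1 is pale.

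Because the genes stood lower together, promoter stretches are shown for 4 members, 2 with a low unadjusted p (Abcb1a and Flt1) and 2 without (Tek and Adgrf5). RefSeq start sites on GRCm38.p6, an older build than the GRCm39 named for the counts, were at hand for 22 of the 34 genes, with 31 windows of 250 bases upstream. The 4 stretches below are the 170 bases before the start, 5′ to 3′ on the gene's strand, with capitals marking any match, on either strand, to CAGGAA (an ETS core with flank), ACAAAG or ACAAT (SOX), TGTTTAC (forkhead) or CTTTGAT (TCF and LEF). None overlaps an annotated exon. Abcb1a lies at chr5:8566921-8567090, plus strand; Flt1 at chr5:147726012-147726181, minus strand; Tek at chr4:94739119-94739288, plus strand; and Adgrf5, at the first of its 2 starts, at chr17:43360261-43360430, plus strand.
Abcb1a: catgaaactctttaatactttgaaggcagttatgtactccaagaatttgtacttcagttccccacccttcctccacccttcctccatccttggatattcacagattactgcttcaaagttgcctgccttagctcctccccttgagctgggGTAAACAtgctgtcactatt
Flt1: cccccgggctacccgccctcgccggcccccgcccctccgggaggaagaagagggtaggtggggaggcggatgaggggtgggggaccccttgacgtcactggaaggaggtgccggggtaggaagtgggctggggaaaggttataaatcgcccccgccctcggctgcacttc
Tek: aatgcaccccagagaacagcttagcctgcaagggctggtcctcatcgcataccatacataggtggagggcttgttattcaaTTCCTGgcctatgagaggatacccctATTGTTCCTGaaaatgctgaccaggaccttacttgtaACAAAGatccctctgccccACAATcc
Adgrf5: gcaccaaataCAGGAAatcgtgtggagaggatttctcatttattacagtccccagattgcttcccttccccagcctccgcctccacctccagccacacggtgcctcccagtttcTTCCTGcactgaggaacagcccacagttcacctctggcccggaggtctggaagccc
The efflux pump gene Abcb1a, with the smallest p of the 34, holds 1 match in its stretch and Flt1 holds 0. Tek, whose level differed little, holds 5, of which an ACAAT and a CAGGAA match on the reverse strand share bases. Adgrf5, which stood lower, holds 2. No link between matches and level was tested. Over the 250-base windows, CAGGAA was found in 41.9% of the 31 windows of these genes and in 25.7% of all 32851 windows. Some genes have several windows, and the windows with CAGGAA belonged to 10 of the 22 genes. Enrichment was not tested. The shares were 19.4% and 16.5% for ACAAAG, 19.4% and 27.7% for ACAAT, 3.23% and 3.17% for TGTTTAC, and 3.23% and 3.21% for CTTTGAT. A match is a run of letters and not a shown binding site. Only these exact strings were searched, so 0 matches do not show that a stretch lacks sites of these families.

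Among the transporters, 6 of 7 were lower, with log2 fold changes from -0.34 to 0.04, and 2 had an unadjusted p under 0.05. For this role and those below, the share of all genes lower at that p was 2.68%. Abcb1a (ENSMUSG00000040584), the P-glycoprotein efflux pump, was at 39.7, 36.2, 34.6 and 36.3 CPM across NTg replicates 1 to 4 and at 32.5, 30.1, 30.2 and 26.4 CPM across Tg. Every Tg library lay below every NTg library. The means were 36.7 ± 2.15 and 29.8 ± 2.51 CPM (SD, n = 4; log2 fold change -0.30 with SE 0.07; adjusted p = 0.175 by edgeR and 0.0151 by DESeq2). In 17 alternative analyses its log2 fold change lay between -0.34 and -0.25. Its close relative Abcb1b was at 6.17 ± 0.385 CPM across NTg and 7.24 ± 0.540 CPM across Tg (log2 fold change 0.23 with SE 0.09, and adjusted p = 0.561 by edgeR). Whether reads of either gene were counted for the other was not measured.

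Mfsd2a (ENSMUSG00000028655), the lysophospholipid carrier that brings in docosahexaenoic acid, was at 14.3, 18.5, 14.2 and 14.5 CPM across NTg and at 12.7, 11.8, 12.3 and 11.9 CPM across Tg. The Tg libraries lay close together and below all NTg libraries, while NTg replicate 2 stood apart above its group. The log2 fold change was -0.34 (SE 0.09; adjusted p = 0.273 by edgeR and 0.0516 by DESeq2), and -0.23 without NTg replicate 2. Slco1a4, an organic anion carrier, was at 47.2, 43.9, 41.3 and 56.3 CPM across NTg and 46.4, 39.4, 39.0 and 37.3 CPM across Tg. Here Tg replicate 1 lay within the NTg range (log2 fold change -0.22 with SE 0.10, and adjusted p = 0.703 by edgeR), and without NTg replicate 4 the log2 fold change was -0.12. Abcg2, a second efflux pump, was at 16.6 ± 1.48 CPM across NTg and 14.8 ± 0.871 CPM across Tg (log2 fold change -0.17 with SE 0.08).

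The other 3 transporters differed less in fitted log2 fold change, though for Slc22a8 the SE was wide. Cells outside the endothelium also use these carriers, and a link to the size of the difference was not tested. Slc7a5, the large neutral amino acid carrier, was at 38.0 ± 3.25 CPM across NTg and 39.2 ± 5.41 CPM across Tg (SD, n = 4; log2 fold change 0.04 with SE 0.10). Slc16a1, a carrier of lactate and ketone bodies, was at 63.4 ± 7.69 and 61.0 ± 6.15 CPM (log2 fold change -0.06 with SE 0.10). Slc22a8, an organic anion transporter also made by the choroid plexus, ran from 10.7 to 15.3 CPM across NTg and from 7.84 CPM, in Tg replicate 4, to 14.01 CPM across Tg (log2 fold change -0.13 with SE 0.18). All 3 had an edgeR adjusted p of 0.946 or more, and their signs changed when some single libraries were left out. Per kilobase of exon, Slc16a1 had the highest level of the 7 in NTg, at 14.3 CPM per kilobase, and Abcg2 the lowest, at 2.04.

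**Figure D3:**
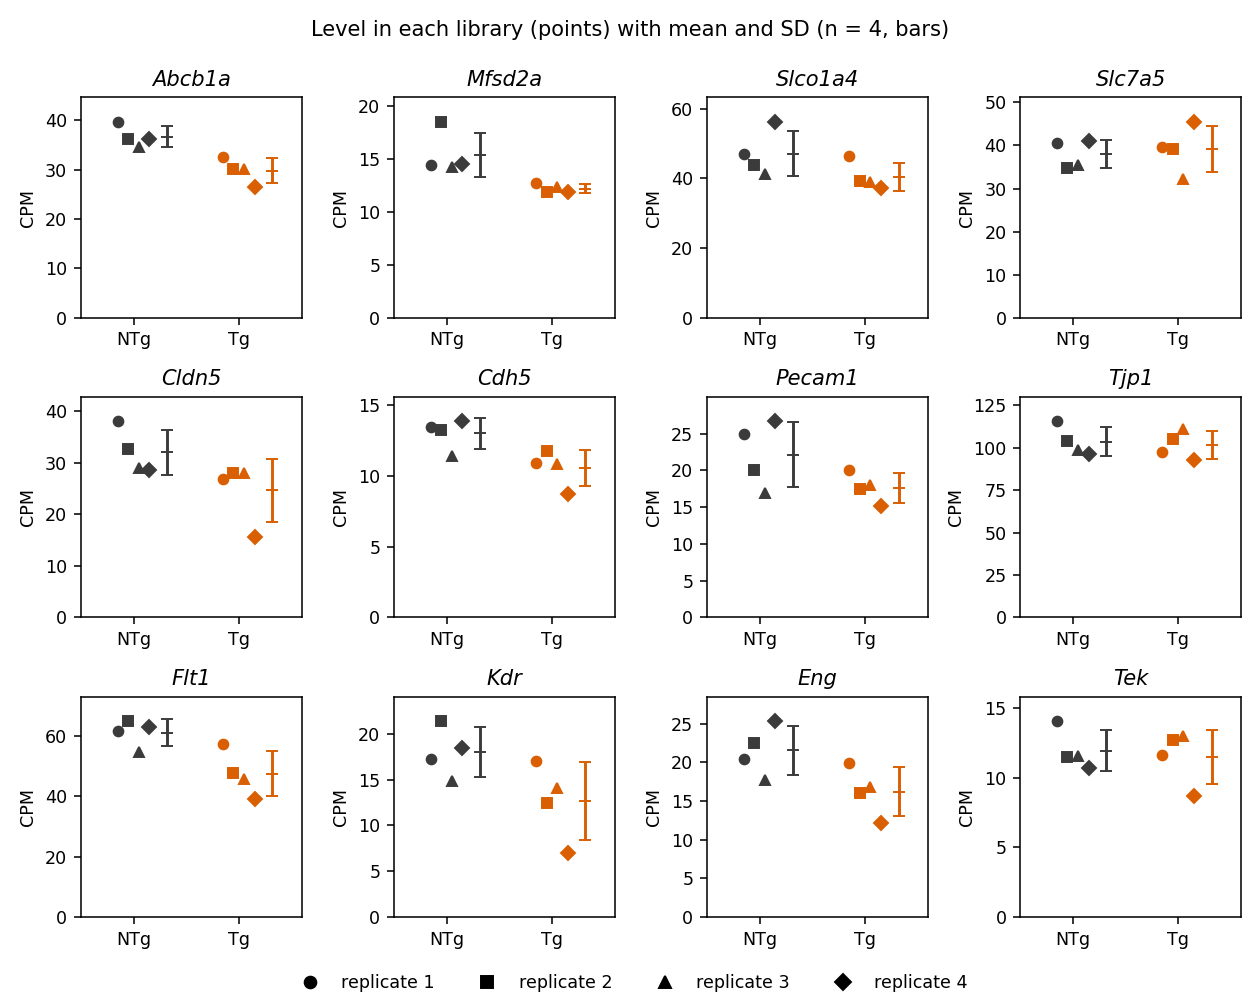
CPM (vertical axis, from 0) of 12 of the genes in each NTg and Tg library, with the mean and SD of 4 libraries beside the points. The genotypes separate for Abcb1a, Mfsd2a and Cldn5 and overlap for the other 9, and Tg replicate 4 (diamond) is the lowest Tg point for every gene but Mfsd2a and Slc7a5.

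All 7 junction and adhesion genes were lower, with log2 fold changes from -0.51 to -0.03, and 3 had an unadjusted p under 0.05. Cldn5, the main claudin of the barrier's tight junctions, was at 38.0, 32.7, 28.9 and 28.6 CPM across NTg and 26.9, 28.1, 28.0 and 15.5 CPM across Tg. All Tg libraries lay below all NTg libraries, the first 3 by little and replicate 4 by far. The log2 fold change was -0.38 (SE 0.18, edgeR adjusted p = 0.705) with all libraries and -0.21 without Tg replicate 4. Cdh5 (ENSMUSG00000031871), the VE-cadherin of adherens junctions, was at 13.5, 13.2, 11.4 and 13.9 CPM across NTg and 10.9, 11.8, 10.9 and 8.73 CPM across Tg (log2 fold change -0.30 with SE 0.10, and adjusted p = 0.444 by edgeR). Its groups overlapped only through Tg replicate 2 and NTg replicate 3.

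Pecam1, the platelet and endothelial adhesion molecule also found on some leukocytes, was at 25.0, 19.99, 16.99 and 26.7 CPM across NTg and 20.1, 17.4, 18.0 and 15.1 CPM across Tg. NTg replicate 3 lay below 3 of the Tg libraries (log2 fold change -0.33 with SE 0.14, and adjusted p = 0.652 by edgeR). Icam2, a leukocyte adhesion molecule of resting endothelium and the least abundant of the 7, was at 3.25, 2.56, 2.10 and 2.70 CPM across NTg and 2.40, 2.01, 1.88 and 1.18 CPM across Tg (log2 fold change -0.51 with SE 0.21, and adjusted p = 0.639 by edgeR). Tg replicate 1 lay within the NTg range of Icam2 and the other 3 Tg libraries below it. Occludin (Ocln), a second membrane protein of tight junctions, was at 11.1 ± 1.87 and 9.55 ± 0.968 CPM, and the adhesion molecule Esam at 12.2 ± 1.55 and 10.6 ± 1.96 CPM (log2 fold changes -0.22 and -0.20). Single libraries set much of both, since Ocln was at -0.09 without NTg replicate 4, and Esam at -0.13 without NTg replicate 1, -0.11 without Tg replicate 4 and -0.31 without Tg replicate 1. Tjp1, which encodes the scaffold ZO-1 and is made by many cell types, was at 103 ± 8.58 and 102 ± 8.13 CPM (SD, n = 4; log2 fold change -0.03 with SE 0.07, and adjusted p = 0.984 by edgeR). Per kilobase of exon, Cldn5 had the highest NTg level of this role, at 22.6 CPM per kilobase, and Icam2 the lowest, at 1.39.

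The growth factor receptors and their partners had the lowest median of the 5 roles, -0.34, with all 7 lower and 3 at an unadjusted p under 0.05. Flt1, VEGF receptor 1, which binds VEGF and limits its signal, was at 61.8, 64.99, 54.6 and 63.0 CPM across NTg and 57.5, 47.8, 45.7 and 39.2 CPM across Tg. Only Tg replicate 1 lay within the NTg range (log2 fold change -0.36 with SE 0.11; adjusted p = 0.324 by edgeR and 0.0639 by DESeq2). Without Tg replicate 1 the log2 fold change was -0.47, and edgeR called it, with an adjusted p of 0.0315 over all genes, of which it then called 1.43%. Kdr, VEGF receptor 2 and the main signalling receptor, was at 17.3, 21.4, 14.8 and 18.5 CPM across NTg and 17.1, 12.5, 14.1 and 6.98 CPM across Tg. Tg replicate 1 lay within the NTg range and the other 3 below it. The log2 fold change of -0.51 (SE 0.23, edgeR adjusted p = 0.687) was -0.31 without Tg replicate 4.

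Eng, the TGF-beta co-receptor endoglin, was at 20.5, 22.5, 17.8 and 25.3 CPM across NTg and 19.9, 16.05, 16.8 and 12.1 CPM across Tg (log2 fold change -0.41 with SE 0.15, and adjusted p = 0.516 by edgeR). Ptprb, the vascular phosphatase VE-PTP, which acts on Tek and VE-cadherin, was at 38.7, 33.7, 29.4 and 39.2 CPM across NTg and 31.7, 29.9, 27.3 and 24.8 CPM across Tg (log2 fold change -0.31 with SE 0.10, and adjusted p = 0.437 by edgeR). For Eng all Tg libraries but replicate 1 lay below the NTg range, and for Ptprb replicates 3 and 4 did. The angiopoietin receptor Tek was at 12.0 ± 1.47 CPM across NTg and 11.5 ± 1.96 CPM across Tg (SD, n = 4; log2 fold change -0.06 with SE 0.13), with its promoter shown above. Its partner Tie1 was at 7.94 ± 2.04 and 6.51 ± 0.805 CPM (log2 fold change -0.28 with SE 0.17), and Robo4, a receptor that steadies vessels, at 5.33 ± 1.20 and 4.22 ± 0.571 CPM (log2 fold change -0.34 with SE 0.17). Without NTg replicate 1 the log2 fold change of Tie1 was -0.09, and without NTg replicate 4 that of Robo4 was -0.20. For Tek, Tie1 and Robo4 edgeR gave adjusted p = 0.975, 0.821 and 0.727.

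Of the transcription factors, 3 of 4 were lower and 0 had an unadjusted p under 0.05. Sox17, which directs arterial fate and barrier maturation, was at 5.94, 6.01, 4.37 and 4.09 CPM across NTg and 4.75, 4.64, 3.87 and 2.98 CPM across Tg (log2 fold change -0.33 with SE 0.18, and adjusted p = 0.785 by edgeR). Its relative Sox18 was at 6.35 ± 0.941 and 5.33 ± 1.12 CPM, and the ETS factor Erg, which maintains endothelial identity, at 4.28 ± 0.440 and 3.90 ± 0.275 CPM (SD, n = 4; log2 fold changes -0.25 and -0.13, SE 0.17 and 0.11). Foxq1, a forkhead factor enriched in brain endothelium, was the rarest of the 34, at 1.45 ± 0.361 and 1.47 ± 0.148 CPM (log2 fold change 0.01 with SE 0.18), and its exons overlap those of a gene on the other strand. Tg replicates 3 and 4 lay below the NTg range of Sox17 and replicate 4 alone below that of Sox18. Without Tg replicate 4 the log2 fold changes were -0.21 for Sox17 and -0.11 for Sox18, and without NTg replicate 4 that of Erg was -0.09.

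All 9 surface, secreted and signalling genes were lower, within a narrow range of log2 fold change from -0.30 to -0.17, and 2 had an unadjusted p under 0.05. Itm2a, an integral membrane protein abundant in brain endothelium, was at 44.2, 52.8, 49.4 and 43.5 CPM across NTg and 43.9, 43.1, 42.5 and 39.3 CPM across Tg (log2 fold change -0.17 with SE 0.07, and adjusted p = 0.609 by edgeR). Egfl7, a secreted factor that shapes vessel tubes and whose row overlaps other genes, was at 16.6 ± 1.03 and 14.5 ± 1.50 CPM (log2 fold change -0.20 with SE 0.08, and adjusted p = 0.639 by edgeR). For both genes Tg replicate 1 lay within the NTg range and the other 3 Tg libraries below it. Ly6c1, a surface antigen of capillaries with the near-identical copy Ly6c2, was at 33.8 ± 6.28 and 29.0 ± 2.02 CPM. Its log2 fold change of -0.22 was -0.09 without NTg replicate 1. Ly6c2 itself was at 11.6 ± 3.41 and 10.9 ± 0.676 CPM.

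The adhesion-type receptors Adgrl4 and Adgrf5 were at 24.1 ± 5.36 and 36.0 ± 6.34 CPM across NTg and at 19.6 ± 4.69 and 29.96 ± 3.19 CPM across Tg (SD, n = 4; log2 fold changes -0.30 and -0.26, SE 0.19 and 0.12). The sialomucins Podxl and Emcn, which coat the lumen, were at 30.2 ± 5.65 and 6.03 ± 0.208 CPM across NTg and at 26.1 ± 3.44 and 5.13 ± 1.01 CPM across Tg (log2 fold changes -0.21 and -0.23, SE 0.14 and 0.13). Several of these differences rested on single libraries. Adgrf5 was at -0.15 without NTg replicate 1, and Adgrl4 at -0.17 without NTg replicate 4, -0.18 without Tg replicate 4 and -0.45 without Tg replicate 1. Podxl was between -0.13 and -0.12 without NTg replicate 1, NTg replicate 4 or Tg replicate 4, and Emcn was at -0.37 without Tg replicate 1. Nos3, the endothelial nitric oxide synthase, was at 5.12 ± 0.608 and 4.35 ± 0.446 CPM (log2 fold change -0.24 with SE 0.12). Vwf, the clotting factor carrier stored in endothelial granules and richest in veins, had a coefficient of variation of 31.2% in NTg, the highest of the 34 there, and 30% in Tg, where Kdr was higher at 33.5%, against medians of 13.8% and 12.3%. It was at 26.9, 19.6, 14.98 and 31.0 CPM across NTg and 25.2, 22.1, 13.3 and 15.02 CPM across Tg, with no order by genotype (log2 fold change -0.29 with SE 0.25, and adjusted p = 0.910 by edgeR). Leaving out 1 library moved it to between -0.46, without Tg replicate 1, and -0.11, without NTg replicate 4. Per kilobase of exon, Itm2a at 27.2 and Ly6c1 at 20.2 CPM per kilobase in NTg were the highest of this role, and Emcn at 1.11 the lowest.

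Other genes of the barrier and of vessels had list medians between -0.10 and 0.04. Single genes of these lists ranged more widely, with log2 fold changes from -0.50 to 0.61, so the medians do not show that each gene was unchanged. edgeR called 0 genes of the other barrier, vessel and cell type lists after adjustment over all genes. Of 14 other barrier transporters, 9 were higher and 5 lower (median log2 fold change 0.04), with 2 in each direction at an unadjusted p under 0.05, against 4.68% of all genes higher and 2.68% lower. Slco1c1, the thyroxine carrier of endothelium and astrocytes, was at 50.8, 47.4, 53.0 and 56.6 CPM across NTg and 43.6, 38.4, 40.8 and 36.1 CPM across Tg. Its groups did not overlap (log2 fold change -0.39 with SE 0.07; adjusted p = 0.121 by edgeR and 0.000496 by DESeq2). Slco2b1, an organic anion carrier that microglia also make, was called higher by DESeq2, at 15.4 ± 1.79 and 20.1 ± 1.41 CPM (log2 fold change 0.38 with SE 0.09; adjusted p = 0.169 by edgeR and 0.0142 by DESeq2), also without overlap, as in 2.62% of all genes. Slc19a3, a thiamine carrier, was at 3.73 ± 0.445 and 2.70 ± 0.799 CPM, and the transferrin receptor Tfrc at 125 ± 21.2 and 148 ± 7.01 CPM. Of 12 other junction genes 7 were lower (median -0.03), with 0 at an unadjusted p under 0.05, and catenin beta (Ctnnb1) was at 371 ± 16.2 and 372 ± 16.4 CPM.

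In the VEGF, angiopoietin and endoglin pathway 14 of 22 genes were lower (median -0.04), 2 of them and 1 higher gene at an unadjusted p under 0.05. Acvrl1, the kinase that signals with endoglin, was at 12.3 ± 1.11 CPM across NTg and 10.2 ± 0.614 CPM across Tg, without overlap (SD, n = 4; log2 fold change -0.27 with SE 0.08, and adjusted p = 0.348 by edgeR). Apln, the apelin ligand, was at 29.7 ± 3.86 and 21.6 ± 4.39 CPM (log2 fold change -0.46 with SE 0.14, and adjusted p = 0.359 by edgeR), and the ligand Vegfa at 74.8 ± 10.7 and 56.4 ± 17.3 CPM, where Tg replicate 1 had 80.8 CPM and the rest of that genotype 39.9 to 52.5 CPM. Angpt1, the ligand of Tek, was at 10.2 ± 2.43 and 13.2 ± 1.78 CPM. In the Wnt barrier pathway 9 of 15 were lower (median -0.03), 1 of them, the feedback inhibitor Nkd1 (13.1 ± 1.22 to 10.9 ± 0.244 CPM, edgeR adjusted p = 0.324), at an unadjusted p under 0.05. Of 15 further endothelial transcription factors 11 were lower (median -0.09), with 2 lower and 1 higher at an unadjusted p under 0.05. The lower ones were Mecom (3.93 ± 0.850 to 2.85 ± 0.360 CPM, edgeR adjusted p = 0.487) and Epas1 (105 ± 8.43 to 92.4 ± 7.02 CPM, edgeR adjusted p = 0.574). The higher one, Lyl1, was called by DESeq2 (1.69 ± 0.226 to 2.58 ± 0.376 CPM, DESeq2 adjusted p = 0.0402). Arterial and venous lists had medians of 0.0098 and -0.08, with 1 of 9 and 0 of 7 at an unadjusted p under 0.05. The venous list includes Vwf, already described among the endothelial genes, and Slc38a5, Lcn2 and Vcam1, which are also in other lists.

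In the list of endothelial activation and leakiness 12 of 14 genes were tested and 8 of them were lower (median -0.10), with 1 lower and 1 higher at an unadjusted p under 0.05. Icam1, a leukocyte adhesion molecule that microglia can also make, was at 3.42, 2.76, 2.56 and 2.91 CPM across NTg and 3.46, 4.74, 3.94 and 5.13 CPM across Tg (log2 fold change 0.57 with SE 0.15; adjusted p = 0.253 by edgeR and 0.0395 by DESeq2). Every Tg library lay above every NTg library, replicate 1 by little. Cavin2, a coat protein of caveolae, was at 12.6 ± 2.07 and 9.61 ± 0.564 CPM (log2 fold change -0.39 with SE 0.11, and adjusted p = 0.323 by edgeR). The diaphragm protein Plvap, which is scarce in an intact barrier, was at 11.9 ± 0.433 and 12.2 ± 3.35 CPM, and Vcam1 at 26.2 ± 1.88 and 24.8 ± 0.835 CPM.

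Markers of the cells around endothelium were measured in the same libraries. Of 11 pericyte genes 5 were lower (median log2 fold change 0.02), 0 had an unadjusted p under 0.05, and they summed to 183 to 209 CPM across NTg and 179 to 207 CPM across Tg, with Pdgfrb at 14.1 ± 0.819 and 13.6 ± 1.50 CPM. Of 7 smooth muscle genes 6 were lower (median -0.04), and 1 of them, the myosin light chain kinase Mylk, had an unadjusted p under 0.05 by edgeR and was called lower by DESeq2 (16.98 ± 3.06 to 11.5 ± 2.03 CPM, DESeq2 adjusted p = 0.0272). Fibroblast genes had a median of 0.01, with 0 of 8 at an unadjusted p under 0.05. None of the 11 pericyte, 7 smooth muscle or 8 fibroblast genes was at 0 in any library. On the scale of the mean list position, the endothelial genes lay at 0.00 ± 0.13 in NTg and -0.24 ± 0.17 in Tg. Pericyte genes lay at 0.00 ± 0.09 and 0.00 ± 0.10, smooth muscle genes at 0.00 ± 0.11 and -0.18 ± 0.27, and fibroblast genes at 0.00 ± 0.37 and 0.05 ± 0.39. Tg replicate 4 was the lowest Tg library in each, at -0.14 for pericyte, -0.44 for smooth muscle and -0.30 for fibroblast genes. The same held for arterial (-0.21) and venous (-0.30) genes. No test of these contrasts was made.

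Choroid plexus, red blood cell and microglial lists had medians farther from 0 than the endothelial genes, while astrocyte and neuronal lists had medians nearer to 0, and their part in the endothelial values was not tested. Over all genes, 2.68% were lower and 4.68% higher at an unadjusted p under 0.05, and DESeq2 called 1.47% in either direction. Choroid plexus epithelium, which makes Slc22a8 and other carriers, was lower for 11 of 11 genes (median log2 fold change -0.81), 9 of them at an unadjusted p under 0.05 and 6 called by DESeq2, summing to 1212 to 1622 CPM across NTg and 741 to 1133 CPM across Tg. Its largest shift was in Tg replicates 2 and 3, at -0.85 and -0.97, whereas Tg replicate 4, the lowest in endothelial genes, lay at -0.46. Red blood cell genes, 0 of 6 tested at an unadjusted p under 0.05, summed to 1283 to 3275 CPM across NTg, 3005 CPM for Tg replicate 1 and between 448 and 733 CPM for the remaining Tg libraries, and Tg replicate 1 also had the highest endothelial position of the Tg libraries. Of the 7 red blood cell genes the rare Epb42 was at 0 in Tg replicates 2 and 4. Microglial genes were higher for 8 of 8 (median 0.64), all 8 at an unadjusted p under 0.05 and 4 called by DESeq2, summing to 320 to 421 CPM across NTg, 418 CPM for Tg replicate 1 and between 649 and 709 CPM for the remaining Tg libraries. Platelet and leukocyte genes, from cells some of which carry Pecam1, summed to 15.5 to 18.8 CPM across NTg and 17.4 to 25.9 CPM across Tg, with 1 of 6 tested, the leukocyte gene Ptprc, higher at an unadjusted p under 0.05. Of these lists, markers at 0 in a library were found for red blood cells alone. Astrocyte genes, from the cells whose endfeet sheathe the vessels, were higher for 5 of 6, 2 of them at an unadjusted p under 0.05, with a list position of 0.07 in Tg replicate 1 and 0.43 to 0.55 in the remaining Tg libraries. Tg replicate 1 was the Tg library nearest to NTg in microglial, astrocyte, red blood cell and endothelial genes. In choroid plexus genes it lay at -0.64 and Tg replicate 4 was nearer, and in neuronal genes it lay farthest, at -0.09. Tg replicate 1 also had the lowest App level of the Tg libraries, 2532 CPM, and a link to these positions was not tested. Neuronal genes had a median of -0.0024, with 0 of 5 at an unadjusted p under 0.05.

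**Figure D4:**
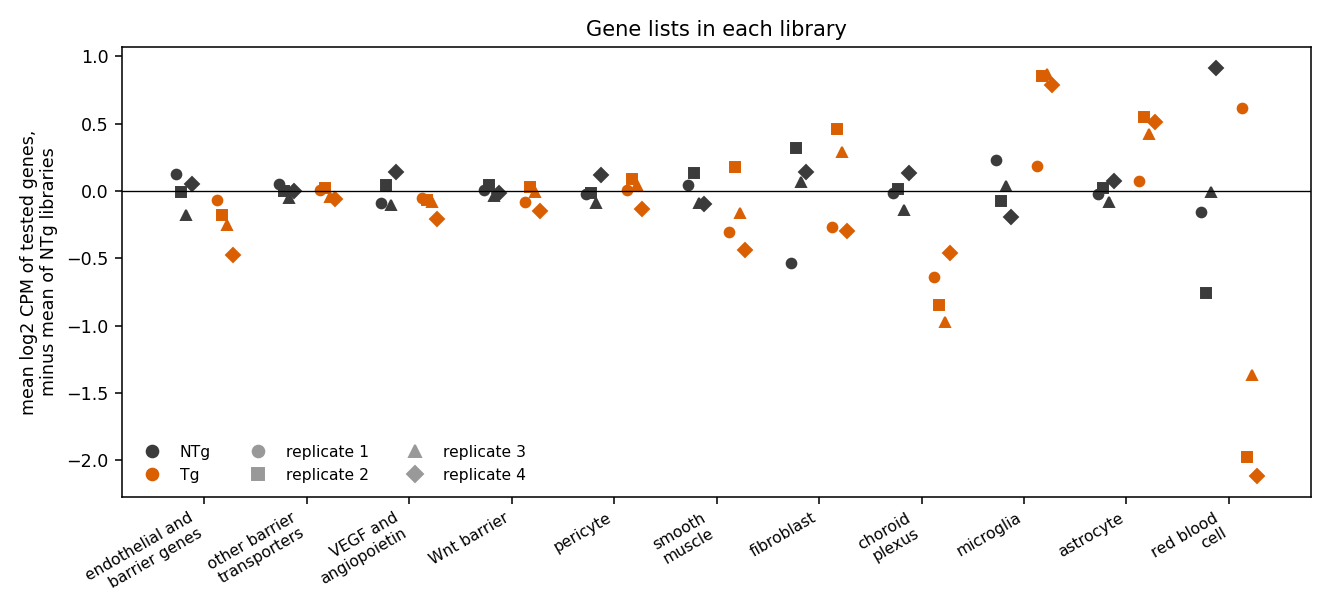
Mean log2 CPM of the tested genes of each list in each library, minus the mean of the NTg libraries (vertical axis), for the endothelial and barrier genes and 10 other lists. Endothelial genes reach -0.47 in Tg replicate 4, pericyte genes stay between -0.14 and 0.12, and the choroid plexus and red blood cell lists spread much further.

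The rows of 6 of the 34 genes overlap exons of another gene in GENCODE M21, namely Abcb1a, Egfl7, Eng, Foxq1, Nos3 and Sox17, and the library kit does not mark strand. Reads of the overlapping genes cannot be told apart there. The overlap reaches 3200 bases for Foxq1 and 61 bases for Eng with Fpgs, while that of Abcb1a is 553 bases of a predicted transcript on the other strand.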

How the data were processed

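RNA was measured in 8 forebrain libraries, 4 Tg and 4 NTg. Per the labels' protocols, TruSeq RNA version 2 libraries, which do not mark strand, were sequenced as paired 75-base reads in pools. All libraries carry the same batch label, which leaves no split by batch. The authors deposited raw read counts per Ensembl gene without normalization. STAR, DESeq2 and the build GRCm39 are named in the submitters' processing notes. No counter, annotation or version is given in the sources used here. There were 0 columns of other series.

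Symbols came from a table of gene names, which matched 52073 of 56748 identifiers. Genes were kept by filterByExpr (minimum count 10, minimum total 15), scaled with TMM and tested with edgeR 4.0.16 in R 4.3.3 (glmQLFTest, Benjamini-Hochberg over all tested genes, threshold 0.05). The SE is the size of the log2 fold change divided by the square root of F. CPM values are on TMM-scaled library sizes and log2 values use a prior count of 2. Exon lengths are unions of GENCODE M21 exons. DESeq2 1.42.0 and limma 3.58.1 were alternatives. Code was tested on simulated data. Every pair of libraries of a genotype differed beyond sampling noise (lowest chi-square divided by its degrees of freedom 11.1).

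The 34 genes and all lists were chosen with earlier results of these data known. All 34 are named. From other lists, up to 4 genes with the smallest p and up to 2 of the most abundant were eligible by rule, while Plvap, Pdgfrb and Epb42 fall outside that rule and were picked after their values were seen.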

Additional observations from a re-analysis of the deposited data

Results flagged for a closer look

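3 genes had 1 library standing apart from the other 3 of its genotype, out of 68 combinations of gene and genotype examined, of which chance gives about 1 in 20. Cldn5 was at 15.52 CPM in Tg replicate 4, where the other Tg libraries lay between 26.89 and 28.07 CPM. Mfsd2a was at 18.46 CPM in NTg replicate 2, with 14.16 to 14.45 CPM for the rest of NTg. Robo4 was at 5.071 CPM in Tg replicate 1, where the other Tg libraries lay between 3.84 and 4.009 CPM.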

How the results depend on the processing

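Over 17 alternatives 29 to 33 of the 34 genes stayed lower, and the median log2 fold change, -0.24 with all libraries, lay between -0.25 and -0.22 under other tools, scalings and filters and between -0.31 and -0.19 with single libraries left out. The number at an unadjusted p under 0.05, 10 in the analysis reported, all lower, where 2.68% of all genes were lower at that p, was 16 with DESeq2 (1.78% of all genes), 15 with no filter on low counts (2.06%), 6 with library totals only (1.65%) and 6 to 18 with single libraries left out (1.98% to 3.93%). Members called over all genes numbered 0, or 1 with DESeq2 (Abcb1a), and 0 to 1 with single libraries left out (Flt1 without Tg replicate 1). The count over all genes, 3, was 345 with DESeq2, 127 with no filter on low counts, 1 with the replicate number as a block, and 3 to 314 with single libraries left out. Of 578 single-gene values 12 changed sign, all near 0 and with single libraries left out. With single libraries left out, the log2 fold change ranged from -0.0365 (without Tg replicate 4) to 0.125 for Slc7a5, -0.243 to 0.0129 (without Tg replicate 4) for Slc22a8, -0.108 to 0.0304 (without NTg replicate 4) for Slc16a1, -0.0718 to 0.0299 (without NTg replicate 1) for Tjp1, -0.121 to 0.0543 (without Tg replicate 4) for Tek and -0.0808 (without NTg replicate 4) to 0.190 for Foxq1. The sign also changed without Tg replicate 4 for Slc16a1 and Tjp1, without NTg replicate 1 for Tek, and without NTg replicate 3, Tg replicate 1 or Tg replicate 3 for Foxq1. The cause of these changes was not tested. The rarest genes, such as Foxq1 at 1.45 CPM, rest on the fewest counts. Replicate numbers did not pair the libraries: same-numbered libraries correlated at -0.03 to 0.16 in their deviations from the genotype means, and 3 of 8 correlated best with their own number. With the block, 14 of the 34 were lower at an unadjusted p under 0.05, against 2.45% of all genes, and the median was -0.25.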
